A study of Mus musculus with 6 samples.

Results

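Mitosis and spindle genes were examined in splenic B cells of p80HT transgenic and wild-type (WT) mice. The set holds 35 genes, listed by symbol for their known roles in G2 and M phase. Of these, 34 were measured, among 19938 genes in all; the cyclin gene Ccnb1 has no probeset of its own here and was not analysed. The p80HT group consisted of 3 mice aged 1 year whose serum held M-protein, a monoclonal immunoglobulin. They carry a human coding sequence for p80HT, a mutant form of NF-κB2, driven by an H-2Kb promoter with an immunoglobulin μ enhancer, so that T cells express it as well as B cells. The others were 3 WT littermates, and all 6 mice were of the C57BL/6J x SJL/J background. B cells were taken from spleen with an antibody to B220 on magnetic beads, and RNA of each mouse was hybridised to 1 array (Affymetrix Mouse Gene 1.0 ST). The question was whether the p80HT cells carried more or less mitotic RNA than WT cells, with and without the third p80HT array, which stands apart from the rest.

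Cells that prepare to divide make a common set of transcripts. Cyclin A and cyclin B switch on Cdk1 to start mitosis, the transcription factor Foxm1 helps to raise the G2 transcripts, and Aurora kinases, kinesins and kinetochore proteins build the spindle and attach chromosomes to it. The spindle checkpoint then holds the anaphase-promoting complex until all chromosomes are attached, and midzone proteins complete cytokinesis. Most B cells of a resting spleen do not divide, whereas germinal centre B cells, plasmablasts and blood cell precursors do.

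Many of these genes share 2 short promoter elements, and 5 promoters are printed here because the results turn on their genes: Cenpa, Cenpe and Top2a, which were below WT on p80HT replicates 1 and 2, and Birc5 and Ube2c, whose mean over these 2 arrays was above that of WT. Cenpa and Birc5 were set by rule, and the other 3 were chosen after their values were seen. Each runs from 250 bases before to 50 bases after the start site, with matches on either strand in capitals: TTTGAA (the cell cycle genes homology region, CHR; TTCAAA on the other strand), its relative TTTAAA, and CCAAT (the CCAAT box; ATTGG on the other strand). Sequences and coordinates are from RefSeq (GRCm38.p6): Cenpa chr5:30666636-30666935 (+), Cenpe chr3:135212313-135212612 (+), Top2a chr11:99024140-99024439 (-), Birc5 chr11:117848987-117849286 (+) and Ube2c chr2:164769679-164769978 (+).
Cenpa: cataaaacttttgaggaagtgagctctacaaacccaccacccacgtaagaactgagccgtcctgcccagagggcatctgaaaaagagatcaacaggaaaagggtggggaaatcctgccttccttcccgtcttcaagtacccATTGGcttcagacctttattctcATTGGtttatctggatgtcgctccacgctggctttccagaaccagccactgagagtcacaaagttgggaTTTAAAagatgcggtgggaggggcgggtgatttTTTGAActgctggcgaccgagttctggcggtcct
Cenpe: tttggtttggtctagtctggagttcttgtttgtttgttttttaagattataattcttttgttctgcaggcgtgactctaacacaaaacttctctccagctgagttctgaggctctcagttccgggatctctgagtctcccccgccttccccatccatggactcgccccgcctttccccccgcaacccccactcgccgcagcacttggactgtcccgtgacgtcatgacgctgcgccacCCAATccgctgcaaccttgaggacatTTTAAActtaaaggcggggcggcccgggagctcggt
Top2a: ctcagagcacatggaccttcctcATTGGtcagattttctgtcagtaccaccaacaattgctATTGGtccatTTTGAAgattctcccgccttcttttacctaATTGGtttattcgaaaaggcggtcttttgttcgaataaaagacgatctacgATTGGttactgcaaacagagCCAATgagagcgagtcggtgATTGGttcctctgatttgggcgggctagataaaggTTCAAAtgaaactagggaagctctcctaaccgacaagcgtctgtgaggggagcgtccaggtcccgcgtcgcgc
Birc5: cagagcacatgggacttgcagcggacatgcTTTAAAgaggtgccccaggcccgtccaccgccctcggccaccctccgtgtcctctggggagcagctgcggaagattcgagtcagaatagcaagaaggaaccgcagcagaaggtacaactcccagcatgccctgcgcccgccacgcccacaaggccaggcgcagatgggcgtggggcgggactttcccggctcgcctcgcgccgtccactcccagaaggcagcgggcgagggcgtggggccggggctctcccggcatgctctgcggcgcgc
Ube2c: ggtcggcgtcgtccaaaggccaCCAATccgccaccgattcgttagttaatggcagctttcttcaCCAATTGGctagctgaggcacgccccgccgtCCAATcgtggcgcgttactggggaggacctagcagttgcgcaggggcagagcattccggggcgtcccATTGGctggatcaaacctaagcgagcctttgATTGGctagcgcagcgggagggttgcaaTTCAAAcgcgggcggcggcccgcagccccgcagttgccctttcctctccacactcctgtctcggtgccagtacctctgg

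Cenpa has TTTGAA at 17, TTTAAA at -17 and CCAAT boxes at -109 and -86, counted with the first transcribed base as 1. Top2a has TTTGAA at -23 and -179 with 6 CCAAT boxes, and Ube2c has it at -29, also with 6, of which those at -186 and -183 overlap. Cenpe has TTTAAA at 15 and a CCAAT box at -12. In the Birc5 window TTTAAA at -220 is the one match. Of 30 promoters listed for 29 of the 35 genes, 23 hold TTTGAA (76.7%, against 17.9% of all 32851 promoters), 23 hold CCAAT (76.7%, against 37.4%), 8 hold TTTAAA (26.7%, against 13.2%), and 20 hold TTTGAA with CCAAT (66.7%, against 6.95%). Those not listed are Ccna2, Foxm1, Kif20a, Aurkb, Tpx2 and Cdc25c. Of 79 promoters of other mitosis genes, 49.4% hold TTTGAA, 65.8% CCAAT, 17.7% TTTAAA and 35.4% TTTGAA with CCAAT. A match describes the letters in this window only. Within the set itself, the 22 measured genes with TTTGAA had a median log2 fold change of -0.14 without p80HT replicate 3. The 6 genes of the set without TTTGAA had -0.17.

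The 6 arrays differ in what else they hold. The values are log2 probeset signals, with medians over all probesets of 7.68 to 7.81 per array. Over all genes p80HT replicate 3 correlates with the other 5 arrays at 0.914 to 0.925, and among those 5 the lowest correlation was 0.981. On that array the median of 10 salivary and lacrimal gland genes was 12.07, against 6.56 and 6.79 on p80HT replicates 1 and 2 and 6.39 to 6.64 on WT arrays, and Bpifa2, a salivary protein gene, was at 14.21, against 6.85 to 7.64 on the other 5. The median of 9 B cell genes was 10.66 on it, against 12.15 and 12.06 on p80HT replicates 1 and 2 and 12.32 to 12.55 in WT. Ms4a1 (CD20) was at 11.77 on p80HT replicate 3 and 12.88 to 13.12 elsewhere. Genes of retina, lens, kidney and heart, used as a guide to background, had medians of 6.31 to 6.82 per array. The lowest median was that of p80HT replicate 3, where each of the 9 genes had its lowest signal. The mouse Nfkb2 gene was at 10.57 to 10.87 in p80HT and 10.79 to 10.92 in WT, which does not check the human transgene. In bulk samples a change in the share of dividing cells and a change in RNA per cell cannot be told apart.

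With all 6 arrays, no mitosis or spindle gene rose in p80HT cells and 1, Cenpa, fell. Here rose and fell stand for a change of 1.5-fold or more whose unadjusted p in limma was under 0.01. Of all genes 1.22% rose (243) and 0.968% fell (193); with each array centred on its median these were 183 and 342. At a Benjamini-Hochberg adjusted p under 0.05 in limma no member was higher or lower, against 0.0502% and 0.00502% of all genes, and at an unadjusted p under 0.05 none was higher and 1 was lower (all genes 4.28% and 5.96%). The log2 fold changes of 32 of the 34 members were above 0, where 45.1% of all genes were, and those of Cenpa and Foxm1 were below 0 (54.9% of all genes). Their median was 0.39, against -0.02 for all genes. Their standard errors were wide, with a median of 0.39 on the log2 scale.

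The positive values rested on p80HT replicate 3. It was the highest of the 6 arrays for 33 of 34 members (27.8% of all genes), Cenpa being the exception, and 28 of 34 were more than 1 log2 unit above the WT mean there (7.48% of all genes). Its excess over the highest of the other 5 arrays had a median of 1.28 and ran from -0.53 (Cenpa) to 1.95. Member by member, the SD over the 3 p80HT mice had a median of 0.86, against 0.11 over the 3 WT mice.

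Without that array, 26 of the 34 members were below 0, where 43.7% of all genes were, and 8 were above 0, where 56.3% were. Their median was -0.15, against 0.04 for all genes. Again no member rose and Cenpa fell (all genes 2.01% and 1.45%). At an adjusted p under 0.05 in limma, 2 were lower, Cenpa and Cenpe, and none was higher (all genes 2.11% and 2.56%). Ordinary analysis of variance on the same arrays left no gene at that level. At an unadjusted p under 0.05 in limma, 10 were lower and 2 higher, where 11.7% and 9.84% of all genes were. Both p80HT arrays lay below all 3 WT arrays for 15 members (20.5% of all genes) and above them for 4 (19.7%). The standard errors had a median of 0.11 in this comparison.

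**Figure D1:**
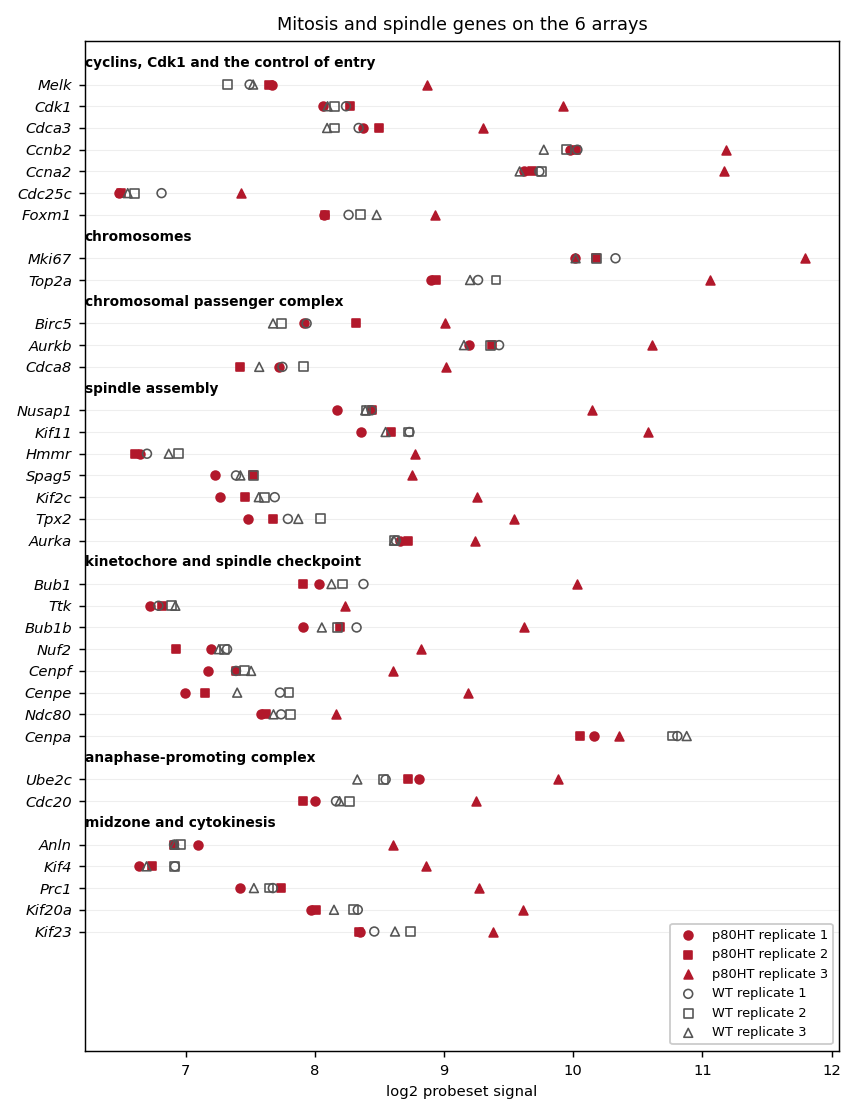
Log2 probeset signal (horizontal axis) of the 34 measured mitosis and spindle genes (rows, by role), 1 point per mouse: p80HT in filled red and WT in open grey, with the replicate number as the shape. The triangle of p80HT replicate 3 lies to the right of all others in every row but Cenpa, while p80HT replicates 1 and 2 lie within or slightly below the WT points in most rows; signals of different genes come from different probes and are not comparable.

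Cenpa, the histone H3 variant that marks centromeres, had the smallest p of the members in both comparisons. It was at 10.16, 10.05 and 10.35 (log2 signal) in p80HT replicates 1, 2 and 3, against 10.81, 10.77 and 10.88 in WT replicates 1, 2 and 3. All 3 p80HT values lie below all 3 WT values (11.9% of all genes), and p80HT replicate 3 is nearest to WT. The log2 fold change was -0.63 ± 0.13 (SE; limma unadjusted p = 0.00173, adjusted p = 0.193). Leaving out p80HT replicate 3 gave -0.71 ± 0.10 (adjusted p = 0.00482 in limma, and 0.00208 to 0.177 over the alternatives to that fit). The call with all 6 arrays was lost without p80HT replicate 2 (-0.56) or WT replicate 3 (-0.60) and after quantile normalization (-0.55).

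The kinetochore and checkpoint genes, 8 with Cenpa, had a median log2 fold change of 0.31 with all 6 arrays and -0.20 without p80HT replicate 3, where all 8 were below 0. Cenpe, the kinesin that carries chromosomes to the spindle equator, was at 6.998, 7.15 and 9.18 in p80HT replicates 1, 2 and 3, against 7.73, 7.80 and 7.40 in WT. Without the third array its log2 fold change was -0.57 ± 0.14 (SE; limma adjusted p = 0.0467), just short of 1.5-fold, and with it 0.13 ± 0.55. Bub1, a checkpoint kinase, was at 8.03, 7.91 and 10.03 in p80HT against 8.38, 8.21 and 8.13 in WT. For both genes p80HT replicates 1 and 2 were the lowest arrays and replicate 3 was the highest. Nuf2 and Ndc80, which form the microtubule-binding complex of the kinetochore, had log2 fold changes of -0.23 and -0.14 without p80HT replicate 3, with both p80HT arrays below WT, and Cenpf, a large kinetochore protein, had -0.17. The checkpoint kinase genes Bub1b and Ttk had -0.13 and -0.10, with groups that overlap. For Nuf2, Ttk, Cenpe and Cenpf, p80HT replicates 1 and 2 were at 6.72 to 7.39, close to the background guide.

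The 7 genes of mitotic entry (Cdk1, Ccna2, Ccnb2, Cdc25c, Foxm1, Melk and Cdca3) had a median log2 fold change of 0.48 with all 6 arrays and 0.00 without p80HT replicate 3, where 4 of the 7 were above 0. Cdk1, the kinase that drives mitosis, was at 8.07, 8.27 and 9.92 in p80HT replicates 1, 2 and 3, against 8.24, 8.15 and 8.10 in WT. Without the third array its difference was 0.00 with a 95% confidence interval of -0.25 to 0.25 (limma), and the groups overlap. Its partners Ccna2 (-0.04, interval -0.28 to 0.20) and Ccnb2 (0.08, -0.17 to 0.34) had similar intervals. Foxm1 was at 8.07, 8.08 and 8.93 in p80HT against 8.26, 8.35 and 8.48 in WT. Its log2 fold change was -0.29 ± 0.11 (SE) without p80HT replicate 3 (limma unadjusted p = 0.0249, adjusted p = 0.167) and -0.01 ± 0.24 with it. Cdc25c, the phosphatase that activates Cdk1, was dim, at 6.48, 6.50 and 7.43 in p80HT against 6.81, 6.61 and 6.55 in WT (-0.16 without p80HT replicate 3).

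Melk and Cdca3 were higher on every p80HT array than on any WT array, as were Ube2c and Aurka, without passing the threshold (8.86% of all genes had all p80HT arrays above WT). Melk, a kinase of dividing cells, was at 7.67, 7.65 and 8.87 in p80HT replicates 1, 2 and 3, against 7.50, 7.32 and 7.52 in WT. Cdca3, an adaptor that promotes entry into mitosis, was at 8.37, 8.49 and 9.30 in p80HT against 8.34, 8.15 and 8.10 in WT. Their log2 fold changes were 0.61 and 0.53 with all arrays and 0.21 and 0.24 without p80HT replicate 3, with adjusted p of 0.263 to 0.572 in limma.

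Ube2c, the ubiquitin-conjugating enzyme of the anaphase-promoting complex, had the largest log2 fold change of the 34 genes with all 6 arrays. It was at 8.80, 8.72 and 9.88 in p80HT replicates 1, 2 and 3, against 8.55, 8.53 and 8.33 in WT. That is 0.67 ± 0.30 (SE; limma unadjusted p = 0.0634) with all arrays and 0.29 ± 0.11 without p80HT replicate 3 (unadjusted p = 0.0263, adjusted p = 0.171). Cdc20, the activator of the same complex, was below WT on p80HT replicates 1 and 2, at 7.998, 7.91 and 9.25 in p80HT against 8.16, 8.27 and 8.19 in WT. Its log2 fold change without p80HT replicate 3 was -0.25 ± 0.10 (adjusted p = 0.194).

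Birc5, which encodes survivin, was 1 of 3 members of the set from the chromosomal passenger complex, the module that corrects attachments at centromeres and then moves to the midzone. It was at 7.91, 8.32 and 9.01 (log2 signal) in p80HT replicates 1, 2 and 3, against 7.94, 7.74 and 7.68 in WT. The groups overlap, because p80HT replicate 1 lies below WT replicate 1. The log2 fold change was 0.63 ± 0.27 (SE; limma unadjusted p = 0.0518, adjusted p = 0.489). Leaving out p80HT replicate 3 gave 0.33 ± 0.14 (adjusted p = 0.215). Birc5 passed the threshold when p80HT replicate 1 was left out (0.88). Without p80HT replicate 3, Aurkb, the kinase of the complex, was at -0.03 (95% confidence interval -0.30 to 0.24) and Cdca8 (borealin) at -0.17 (-0.48 to 0.14). Whether Birc5 differs from its partners was not tested.

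**Figure D2:**
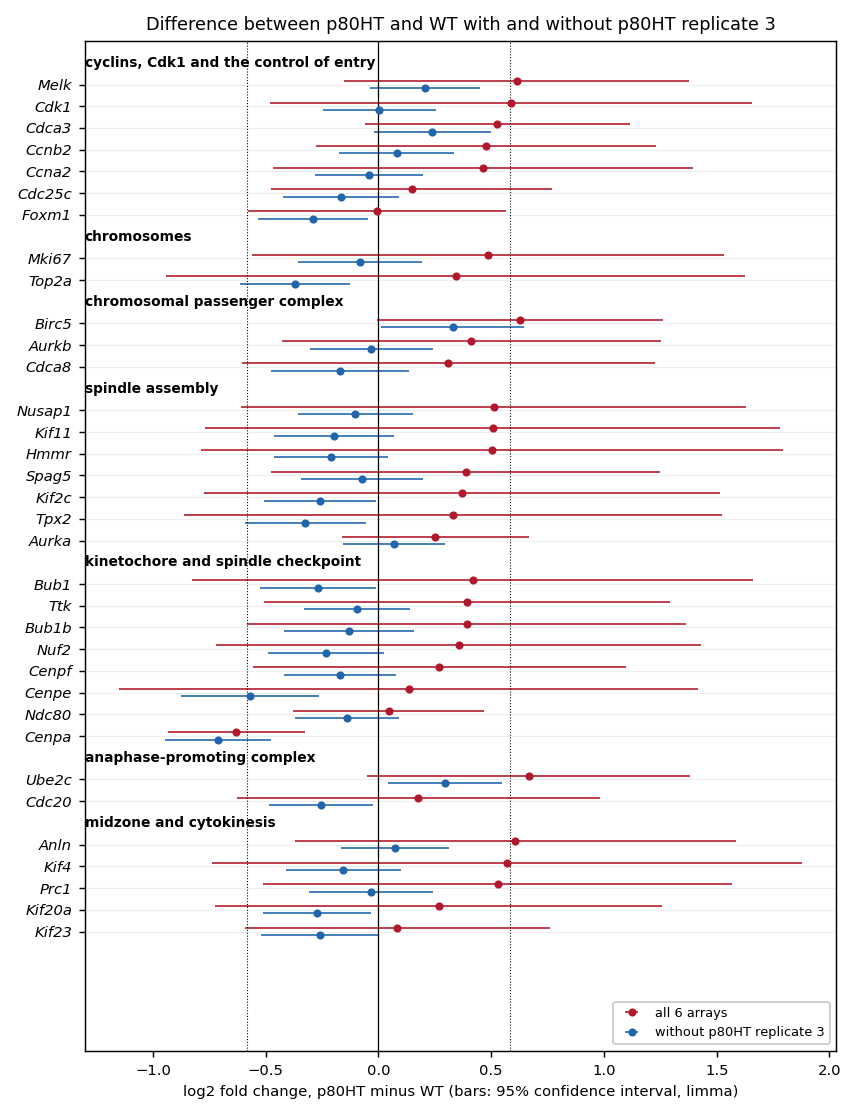
Log2 fold change of each measured gene, p80HT minus WT (horizontal axis), with 95% confidence intervals from limma, for all 6 arrays (red) and without p80HT replicate 3 (blue); dotted lines mark 1.5-fold. The red intervals are wide and all but that of Cenpa cross 0, and the blue values lie to the left of the red ones in every row, with Cenpa and Cenpe farthest below 0.

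Of the 2 genes of chromosome structure, Top2a, the topoisomerase that untangles sister chromatids, was at 8.90, 8.94 and 11.06 in p80HT replicates 1, 2 and 3, against 9.26, 9.40 and 9.20 in WT. It was thus lowest on p80HT replicates 1 and 2 and highest on replicate 3, which was 3.40-fold above the WT mean. Without that array the log2 fold change was -0.37 ± 0.11 (SE; limma unadjusted p = 0.00701, adjusted p = 0.0895). Mki67, the coat protein of mitotic chromosomes known as Ki-67, was at 10.01, 10.17 and 11.79 in p80HT against 10.33, 10.18 and 10.02 in WT. Without the third array its difference was -0.08, with an interval of -0.36 to 0.19.

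Of 7 spindle assembly genes, all were above 0 with the 6 arrays (median 0.39) and 6 were below 0 without p80HT replicate 3 (median -0.20). Tpx2, which activates Aurora A on the spindle, was at 7.48, 7.68 and 9.54 in p80HT replicates 1, 2 and 3, against 7.79, 8.05 and 7.87 in WT. Its log2 fold change without the third array was -0.32 ± 0.12 (SE; limma unadjusted p = 0.0234, adjusted p = 0.163). Aurka, the Aurora A kinase gene, had the smallest excess of the 7 on p80HT replicate 3: at 8.66, 8.72 and 9.24 in p80HT and 8.63, 8.62 and 8.61 in WT, it was 1.54-fold above the WT mean there, and its log2 fold change was 0.07 without that array. The kinesin genes Kif11, which pushes spindle poles apart, and Kif2c, which shortens microtubules, were 3.77-fold and 3.09-fold above WT on that array, and at -0.20 and -0.26 (log2) without it. The spindle proteins Hmmr, Nusap1 and Spag5 were at -0.21, -0.10 and -0.07 without it. On p80HT replicates 1 and 2, Kif2c (7.27 and 7.46) and Spag5 (7.22 and 7.52) were not far above the background guide, so their folds are uncertain.

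The 5 genes of the midzone and cytokinesis had a median of 0.53 with all arrays and -0.16 without p80HT replicate 3. Kif4, a chromosome-bound kinesin that works with Prc1, was at 6.64, 6.74 and 8.86 in p80HT replicates 1, 2 and 3, against 6.92, 6.92 and 6.70 in WT. All but p80HT replicate 3 lie near the background guide, so the fold of Kif4 is uncertain. On the arrays other than p80HT replicate 3, Anln was at 6.91 to 7.10 and Hmmr at 6.61 to 6.94, also near that guide. Kif20a and Kif23, kinesins of the midzone, were at -0.27 and -0.26 (log2 fold change) without that array, both with p80HT below WT. Prc1, the bundler of midzone microtubules, was at -0.03 and Anln, which organises the contractile ring, at 0.07, with groups that overlap.

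Further genes of mitosis and replication were read in the same 2 comparisons. Of 84 other mitosis genes measured, 1 rose and none fell with all 6 arrays (all genes 1.22% and 0.968%). Their median log2 fold change was 0.20. Without p80HT replicate 3 none rose and 1 fell (all genes 2.01% and 1.45%), and the median was -0.10. The riser was Zwint, a kinetochore scaffold, at 10.05, 10.08 and 10.70 in p80HT replicates 1, 2 and 3, against 9.37, 9.49 and 9.71 in WT (0.76 ± 0.20, SE; limma adjusted p = 0.316). It was just under 1.5-fold without the third array, at 0.55 (adjusted p = 0.0363), and its call was also lost without WT replicate 1, 2 or 3 (0.68, 0.74 and 0.85). The gene that fell without p80HT replicate 3 was Ncapg, a condensin subunit (-0.61, limma adjusted p = 0.0296), which was at 0.13 with it.

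Of 42 DNA replication genes, none rose or fell with all 6 arrays, and the median was 0.12. Without p80HT replicate 3 none rose and 2 fell (all genes 2.01% and 1.45%), and the median was -0.15. The 2 were Pcna, the sliding clamp of DNA polymerases (-0.69, limma adjusted p = 0.00818), and Dbf4, the activating subunit of the Cdc7 kinase (-0.59, adjusted p = 0.0386). Pcna was at 11.41, 11.34 and 12.02 in p80HT replicates 1, 2 and 3, against 11.97, 12.19 and 12.03 in WT, so the third array lay within the WT range. Of 22 regulators of the G2 and M phase program (E2F, retinoblastoma, MuvB and NF-Y genes), none passed with all 6 arrays (median -0.11) and E2f5 fell without p80HT replicate 3 (-0.83, adjusted p = 0.0235; median -0.14). These lists share the arrays and the WT mice with the members, so they do not add independent support.

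**Figure D3:**
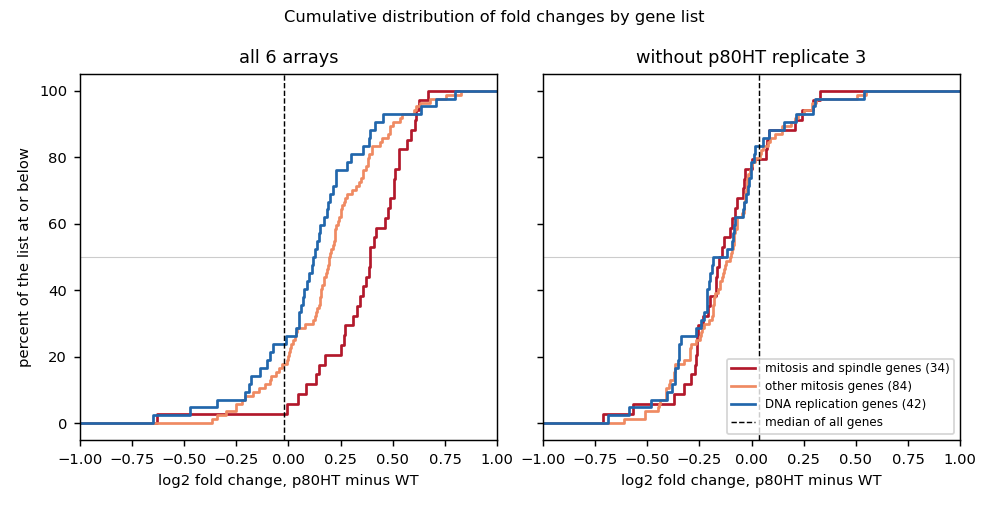
Percent of genes (vertical axis) at or below a given log2 fold change, p80HT minus WT (horizontal axis), for the 34 mitosis and spindle genes, 84 other mitosis genes and 42 DNA replication genes, with all 6 arrays (left) and without p80HT replicate 3 (right). The members lie farthest to the right with all arrays (median 0.39), and without p80HT replicate 3 all 3 lists have medians below that of all genes (-0.15, -0.10 and -0.15 against 0.04).

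Markers of other cells also differed between the arrays, some in the direction of the mitosis genes and some not. On p80HT replicate 3 the median signal of 12 macrophage genes was 11.42, against 9.16 and 9.29 on the other p80HT arrays and 8.70 to 8.93 in WT. The median of 18 T cell genes was 9.96 on p80HT replicate 3, 9.11 and 8.70 on the others and 8.02 to 8.35 in WT. Without p80HT replicate 3, 14 of these T cell genes rose (2.01% of all genes). For 8 fibroblast genes the median on p80HT replicate 3 was 9.35, against 7.11 and 7.24 on the other p80HT arrays and 6.73 to 7.30 in WT. The summed macrophage signal (log2) was 15.08 there, against 12.62 to 13.16 on the other 5 arrays, that of T cells 14.84 against 12.33 to 13.44, and that of fibroblasts 13.65 against 10.20 to 10.61. The 6 myeloid precursor genes had a median of 6.99 there, and their summed signal was 9.74, against 9.87 to 10.61 in WT. The 10 erythroid precursor genes had a median of 6.80 there, but a summed signal of 10.94, against 10.66 to 10.79 in WT. Among them Slc4a1 (band 3) was at 8.59 there against 7.86 to 7.999 in WT and Alas2, of heme synthesis and named after its values were seen, at 9.03 against 7.18 to 7.36. Others lay below WT there: Ermap was at 8.13 against 8.48 to 8.49 in WT, and Epor at 7.76 against 7.82 to 7.91. For 6 of the 10 genes p80HT replicate 3 was the lowest array.

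On p80HT replicates 1 and 2 the precursor markers lay above WT. The myeloid precursor median was 8.70 and 8.69, against 7.26 to 7.81 in WT. All 6 genes rose without p80HT replicate 3 (2.01% of all genes), among them Mpo, a granule enzyme (2.28, limma adjusted p = 0.0016). The erythroid precursor median was 7.82 and 8.04, against 6.999 to 7.37 in WT, and 7 of 10 rose. Germinal centre genes lay lower, with a median of 7.64 and 7.77 against 8.45 to 8.86 in WT. Of these, 6 of 8 fell without p80HT replicate 3 (1.45% of all genes). Of 9 B cell genes, 2 fell in that comparison and 8 were below 0 (43.7% of all genes), with a median log2 fold change of -0.22. On p80HT replicate 3 the germinal centre genes were mixed. Their list median of 9.115 was the highest of the 6 arrays, but the median difference from the WT mean was -0.03 (-1.69 to 1.89). For 3 of 8 genes p80HT replicate 3 was the highest array and for 2 the lowest. S1pr2 was at 9.66 there, against 8.92 to 9.22 in WT, whereas Bcl6 and Neil1 lay below WT. The summed signal was 12.19, against 12.19 to 12.36 in WT. The median of 9 plasma cell and plasmablast genes was 10.68 to 11.01 in p80HT and 10.67 to 11.03 in WT, but single genes differed. On p80HT replicate 3 they lay -1.92 to 1.06 from the WT mean, with 5 of 9 highest there and 2 lowest. Irf4 was at 10.34 there, against 12.18 to 12.35 in WT. With all 6 arrays 1 of the 9 rose and none fell (all genes 1.22% and 0.968%). Without p80HT replicate 3 the counts were the same (all genes 2.01% and 1.45%). Neutrophil genes varied in both groups, with medians of 7.57 to 10.68 in p80HT and 8.63 to 10.74 in WT. The part of any of these cells in the mitotic signal was not tested.

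**Figure D4:**
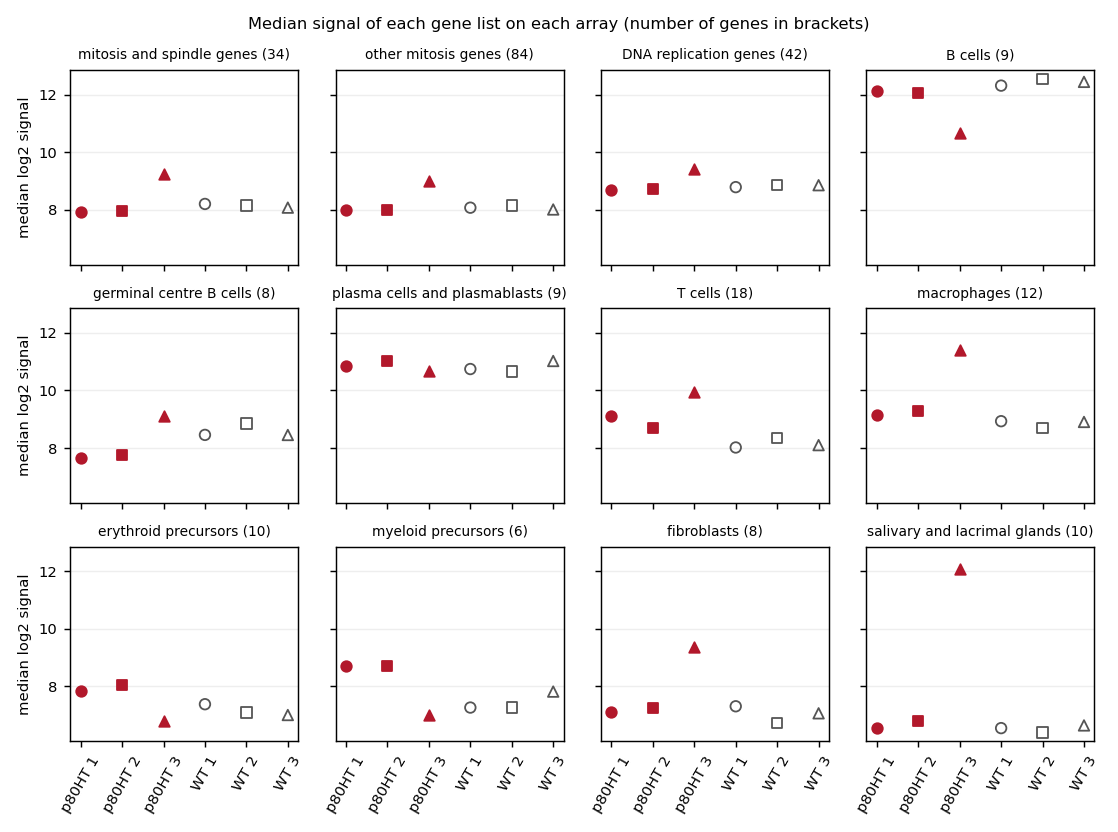
Median log2 signal (vertical axis) of 12 gene lists on each array (p80HT in filled red, WT in open grey, number of genes in brackets). The mitosis and spindle, other mitosis and DNA replication genes have their highest medians on p80HT replicate 3. That array also has the highest medians for germinal centre B cells, T cells, macrophages, fibroblasts and glands. Its medians are the lowest for B cells and for erythroid and myeloid precursors. Levels of different lists come from different probes and are not comparable.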

How the data were processed

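The deposited values are log2 probeset signals that the authors made with RMA in Partek from 6 Affymetrix Mouse Gene 1.0 ST arrays, 1 per mouse. Versions, annotation release and settings are not given in the sources used here. Of 28853 probesets, 21789 carry 1 gene symbol in the platform table, 1621 several and 5443 none. For each of 19938 genes the brightest of its single-symbol probesets (mean of the 6 arrays) was taken; Top2a was the 1 member with a choice. There is no read depth to quote, and precision is limited by the 3 mice a group.

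The 2-sided test was limma's (version 3.58.1, under R 4.3.3; lmFit with eBayes and no block), fitted over all genes with Benjamini-Hochberg adjustment over all genes. Fold changes are p80HT minus WT, and the call threshold follows the study's methods. With 3 arrays a side, 0.10 is the lowest p of an exact permutation test. Members and lists were chosen with earlier results of these data known. The text names all members, genes of 3 pathway lists past the threshold (at most 6 a list), up to 3 of the brightest genes of each of 13 marker lists, and Nfkb2. Signals are those of all B220-selected cells. Alternatives were leaving out each array, a replicate block, ordinary analysis of variance, an intensity trend, array weights, quantile normalization, median centring, a filter at the 25th percentile, the mean of a gene's probesets and other thresholds; those applied to the fit without p80HT replicate 3 were added after seeing the data. The fit was tested on simulated data in which all arrays had a spread drawn from the WT arrays. That test does not cover an array that stands apart, as p80HT replicate 3 does. Tables and figures were made with Python 3.11.15, pandas 2.3.3 and matplotlib 3.10.9.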

Additional observations from a re-analysis of the deposited data

How the results depend on the processing

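Leaving out 1 array at a time gave 0 to 1 members higher (Birc5, 0.88 without p80HT replicate 1) and 0 to 1 lower (Cenpa's call was lost without p80HT replicate 2, -0.56, or WT replicate 3, -0.60), 0 to 1 other mitosis genes higher and 0 to 1 lower, and 137 to 401 of all genes higher and 69 to 290 lower. The member median ranged over -0.15 to 0.70 and that of other mitosis genes over -0.10 to 0.39. The sign of single genes turned in that range: Mki67 -0.081 to 0.81, Top2a -0.37 to 0.71, Ccna2 -0.041 to 0.73, Aurkb -0.031 to 0.68, Bub1 -0.27 to 0.79, Bub1b -0.13 to 0.72, Cdc20 -0.25 to 0.41, Tpx2 -0.32 to 0.71, Kif11 -0.20 to 0.92, Kif20a -0.27 to 0.55, Kif23 -0.26 to 0.26, Kif4 -0.16 to 0.96, Kif2c -0.26 to 0.73, Cenpe -0.57 to 0.52, Cenpf -0.17 to 0.54, Foxm1 -0.29 to 0.14, Nusap1 -0.10 to 0.88, Prc1 -0.034 to 0.89, Ttk -0.10 to 0.66, Ndc80 -0.14 to 0.15, Nuf2 -0.23 to 0.72, Spag5 -0.072 to 0.69, Hmmr -0.21 to 0.87, Cdca8 -0.17 to 0.63, Cdc25c -0.16 to 0.31 and Ncapg -0.61 to 0.59.

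With array weights, which gave p80HT replicate 3 a weight of 0.0687, the medians were -0.10 (members) and -0.12 (other mitosis genes), with 0 other mitosis genes higher and 1 lower, 478 of all genes higher and 422 lower, and the sign turned for Top2a (-0.29), Bub1 (-0.12), Bub1b (-0.10), Cdc20 (-0.20), Tpx2 (-0.34), Kif11 (-0.15), Kif20a (-0.18), Kif23 (-0.26), Kif4 (-0.051), Kif2c (-0.25), Cenpe (-0.41), Cenpf (-0.26), Nusap1 (-0.14), Prc1 (-0.042), Ttk (-0.15), Ndc80 (-0.10), Nuf2 (-0.10), Spag5 (-0.13), Hmmr (-0.20), Cdc25c (-0.074) and Ncapg (-0.72). After quantile normalization 0 members were lower and Cenpe (-0.0005) and Ndc80 (-0.066) turned. After median centring 0 other mitosis genes were higher, 342 of all genes were lower, and Kif23 (-0.0083) and Ndc80 (-0.046) turned. Ordinary analysis of variance gave 0 other mitosis genes higher and 119 of all genes higher and 77 lower. At an adjusted p under 0.05, 0 members were lower, 0 other mitosis genes higher, and 10 of all genes higher and 1 lower. At an unadjusted p under 0.05, 2 other mitosis genes were higher and 2 lower, and 853 of all genes were higher and 1189 lower. The cause of these changes was not tested.

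Whether replicate numbers pair the mice is not known, because the labels name no litters. Same-number deviations correlated at 0.07, -0.24 and 0.07, and with so few mice these values cannot decide it. A replicate block gave 0 members higher, 1 lower and a median of 0.39, 363 of all genes higher and 204 lower, and changed no member's call.

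Without p80HT replicate 3, by alternatives chosen after seeing the data, 2 members were lower after quantile normalization or centring, since Cenpe passed as well (-0.67 and -0.65), and 1 to 2 with a further array left out (Cenpe -0.65 without p80HT replicate 2 and -0.69 without WT replicate 3). In limma without p80HT replicate 3, 2 were lower at an adjusted p under 0.05, and 10 lower and 2 higher at an unadjusted p under 0.05. Ordinary analysis of variance on the same arrays left no gene with an adjusted p under 0.05, so the adjusted calls of Cenpa and Cenpe were lost. With 1 p80HT array left, that array is assumed to vary like the others. With 3 or fewer mice a group and p80HT replicate 3 apart from the rest, the members' standard errors with all 6 arrays reached 0.56 on the log2 scale.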
